A study of Homo sapiens with 16 samples.

Results

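The 9 genes described here encode the enzymes that begin the removal of DNA methylation and the proteins that read it. They were chosen by name, with earlier results of these data known: TET1, TET2, TET3, TDG, MBD4, MBD1, MBD2, ZBTB33 and ZBTB38. They are 9 of the 60676 genes in the count table. RNA sequencing was performed with THP-1 cells, a line from an acute monocytic leukemia that turns into macrophage-like cells when phorbol-12-myristate-13-acetate (PMA) is added. There were 4 stable lines, each carrying 1 lentiviral short hairpin against UHRF1 (shUHRF1), DNMT1 (shDNMT1) or DNMT3B (shDNMT3B), or a non-targeting hairpin (shNC). All were selected with puromycin, so shNC cells carry a vector too. Each line was kept for 48 h in 100 ng/ml PMA or in the solvent DMSO, with 2 libraries per group and 16 libraries in all. Nothing in the labels says whether the libraries of a group came from separate cultures, so the p-values measure the spread between these libraries, which may be technical.

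TET1, TET2 and TET3 are dioxygenases that oxidize 5-methylcytosine to 5-hydroxymethylcytosine and further. TDG is a DNA glycosylase that cuts out the most oxidized forms, and MBD4 is a glycosylase with a methyl-CpG binding domain that removes the thymine left when methylcytosine deaminates. MBD1 and MBD2 bind methylated CpG and bring in repressors, and ZBTB33 (Kaiso) and ZBTB38 are zinc finger proteins that bind methylated DNA. TET2 is among the genes often mutated in myeloid leukemia.

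Levels are given as CPM, counts per 1000000 counts of a library after TMM scaling. Total counts per library were 13883556 to 23151864, and were higher in libraries numbered 1 (20384066 to 23151864) than in those numbered 2 (13883556 to 15679327). All 6 macrophage genes used as markers, among them MMP9, CSF1R and ITGAM (CD11b), rose with PMA in every line, and all 7 genes of dividing cells fell. The summed level of the macrophage genes was 7743 to 29460 CPM in PMA libraries, against 196.6 to 346.5 CPM in DMSO libraries. The summed level of the dividing-cell genes was 83.3 to 259.2 CPM in PMA libraries and 835.3 to 1228 CPM in DMSO libraries. In bulk RNA, fewer cells with a transcript and less transcript per cell cannot be told apart. The summed level of 6 myeloid identity genes was 502.8 to 639.7 CPM in PMA libraries and 298.1 to 422.1 CPM in DMSO libraries. Among them SPI1 was called higher and LYZ lower with PMA in every line. PTPRC was called higher in every line but shNC, and HOXA9 lower in shNC and shUHRF1. Genes of other blood lineages lay between 1.19 and 11.9 CPM in sum, except in shNC DMSO replicate 1, where HBB, HBA1 and HBA2 brought the sum to 490.2 CPM. PPBP, a platelet marker among them, was called higher with PMA in every line (log2 6.38 in shNC). The share of a library's counts in mitochondrial genes differed between treatments, at 3.92% to 19.5% in PMA libraries and 9.86% to 29.0% in DMSO libraries, and in every line it was lower in the PMA library than in the DMSO library of the same number. Its part in the changes with PMA was not tested.

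None of the hairpin targets passed the test as lower than shNC in its own line in DMSO, with or without the replicate number as a block. In DMSO, UHRF1 was at 72.0 and 91.2 CPM in libraries labelled shUHRF1, against 87.1 and 122.6 CPM in shNC (log2 difference -0.36 ± 0.26 SE, adjusted p = 0.605). DNMT1 was at 82.4 and 111.3 CPM in libraries labelled shDNMT1 in DMSO, against 89.6 and 140.2 CPM in shNC (-0.25 ± 0.30, adjusted p = 0.787). DNMT3B was at 6.40 and 6.87 CPM in libraries labelled shDNMT3B in DMSO, against 8.73 and 9.73 CPM in shNC (-0.48 ± 0.19, adjusted p = 0.212). For DNMT3B both libraries lay below both shNC libraries, while for UHRF1 and DNMT1 the groups overlapped. With the block the adjusted p was 0.0525 for UHRF1, 0.204 for DNMT1 and 0.0757 for DNMT3B. In PMA each target was higher in its own line than in shNC, by 0.87 ± 0.29 for UHRF1 (adjusted p = 0.129), 0.45 ± 0.30 for DNMT1 (adjusted p = 0.376) and 1.06 ± 0.23 for DNMT3B (adjusted p = 0.00688, edgeR's quasi-likelihood test in all 6 cases). With the replicate number as a block, the first 2 of these PMA differences also passed (adjusted p = 3.75e-04 and 0.00418). The lines are therefore named below as their libraries are labelled, and any direction drawn from a comparison with shNC rests on these labels. Protein levels and DNA methylation of the lines, which the study also measured, were not analysed here.

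3 of the 9 genes passed the test in at least 3 lines when PMA was compared with DMSO: TET1, ZBTB38 and MBD4. Their promoter windows are shown here because these genes carry most of the results. Each window holds 250 bases before and 50 bases after a RefSeq transcript start (GRCh38.p14). In the TET1 window (chr10:68560087-68560386, plus strand) and the MBD4 window (chr3:129439899-129440198, minus strand) capitals mark CpG, the dinucleotide that these proteins oxidize, repair or bind. In the ZBTB38 window (chr3:141368254-141368553, plus strand) capitals mark an ETS motif, an AP-1 motif and a cAMP response element (CRE), in this order.
TET1: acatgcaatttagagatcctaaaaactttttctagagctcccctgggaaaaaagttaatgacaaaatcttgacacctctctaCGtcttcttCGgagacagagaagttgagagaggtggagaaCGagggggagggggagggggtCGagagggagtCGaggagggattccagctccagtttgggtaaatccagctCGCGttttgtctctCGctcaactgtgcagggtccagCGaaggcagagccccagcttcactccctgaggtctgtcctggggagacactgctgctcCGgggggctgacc
MBD4: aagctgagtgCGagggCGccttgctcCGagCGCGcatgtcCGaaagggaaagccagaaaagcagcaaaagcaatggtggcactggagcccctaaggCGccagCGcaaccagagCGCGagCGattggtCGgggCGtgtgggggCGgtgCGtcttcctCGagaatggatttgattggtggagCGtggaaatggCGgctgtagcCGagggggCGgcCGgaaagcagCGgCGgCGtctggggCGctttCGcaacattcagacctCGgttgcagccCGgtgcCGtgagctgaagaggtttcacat
ZBTB38: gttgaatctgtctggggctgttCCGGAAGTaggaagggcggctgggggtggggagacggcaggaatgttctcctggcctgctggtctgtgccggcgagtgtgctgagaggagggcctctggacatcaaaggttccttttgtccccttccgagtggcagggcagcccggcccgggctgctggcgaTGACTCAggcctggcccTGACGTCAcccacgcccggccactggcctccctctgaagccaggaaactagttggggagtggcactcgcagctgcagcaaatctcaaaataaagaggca

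TET1 had 3 windows, of 6 to 11 CpG, and the one of the most upstream start is shown. ZBTB38 had 10 windows, of 0 to 35 CpG, and the one shown was chosen after the motif search because it held these motifs. MBD4 had a single window. Which start was used in these cells was not measured. The TET1 window shown had 10 CpG, and 43.6% of the 35116 windows of this length in the table had fewer. The MBD4 window had 29 CpG (75.8% had fewer), and the ZBTB38 window shown had 13 (48.3% had fewer). Over all its windows the share with fewer ran from 33.7% to 45.3% for TET1, and for the richest ZBTB38 window it was 85.9%. The 9 genes had 22 windows in all. They were searched on both strands for AP-1 (TGAGTCA), CRE (TGACGTCA), ETS (CCGGAAGT), PU.1 (GAGGAAGT), Kaiso (TCCTGCNA), the CCAAT box (CCAAT), the SP1 box (GGGCGG), NRF1 and 3 forms of E2F (TTTCCCGC, TTTGGCGC and TTTCGCGC). The ZBTB38 window above was the only one of the 22 with AP-1, CRE or ETS, which started 66, 49 and 228 bases before the transcript start. AP-1 was found in 4.95% of all windows, CRE in 1.85% and ETS in 4.14%. These are shares per window, and ZBTB38, with 10 windows, offered more places for a motif than the other genes. A Kaiso motif, present in 4.69% of all windows, was found in another ZBTB38 window (chr3:141386175-141386474), 37 bases before the start. An NRF1 motif (1.24% of all windows) was found in the MBD1 window only. SP1 boxes were found in 10 of the 22 windows, belonging to 6 of the 9 genes, against 45.0% of all windows, and CCAAT boxes in 10 windows of 5 genes, against 34.6% of all. The TET1 windows chr10:68600018-68600317 and chr10:68600224-68600523 overlap and share a CCAAT box, which counts for both. The search found no E2F (2.74% of all windows) and no PU.1 (2.59%) in these windows.

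All 9 genes passed the filter on low counts. TET1 did so through its DMSO libraries, since its highest PMA count was 15. The 3 dioxygenase genes differed in level. Per kilobase of exon, TET3 averaged 3.72 ± 0.041 CPM in shNC PMA and 3.67 ± 0.21 CPM in shNC DMSO, TET2 averaged 1.19 ± 0.36 CPM and 0.715 ± 0.21 CPM, and TET1 averaged 0.015 ± 0.021 CPM and 0.349 ± 0.014 CPM (SD, n = 2 each). MBD4 was the highest of the 9 per kilobase, at 19.0 ± 1.5 CPM in shNC PMA and 11.6 ± 2.2 CPM in shNC DMSO, and MBD2 followed with 13.0 ± 0.66 CPM and 10.5 ± 2.2 CPM. ZBTB38 was sixth of the 9 in shNC PMA (4.36 ± 1.8 CPM) and eighth in shNC DMSO (0.552 ± 0.24 CPM). All other levels below are CPM per gene and not per length.

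**Figure D1:**
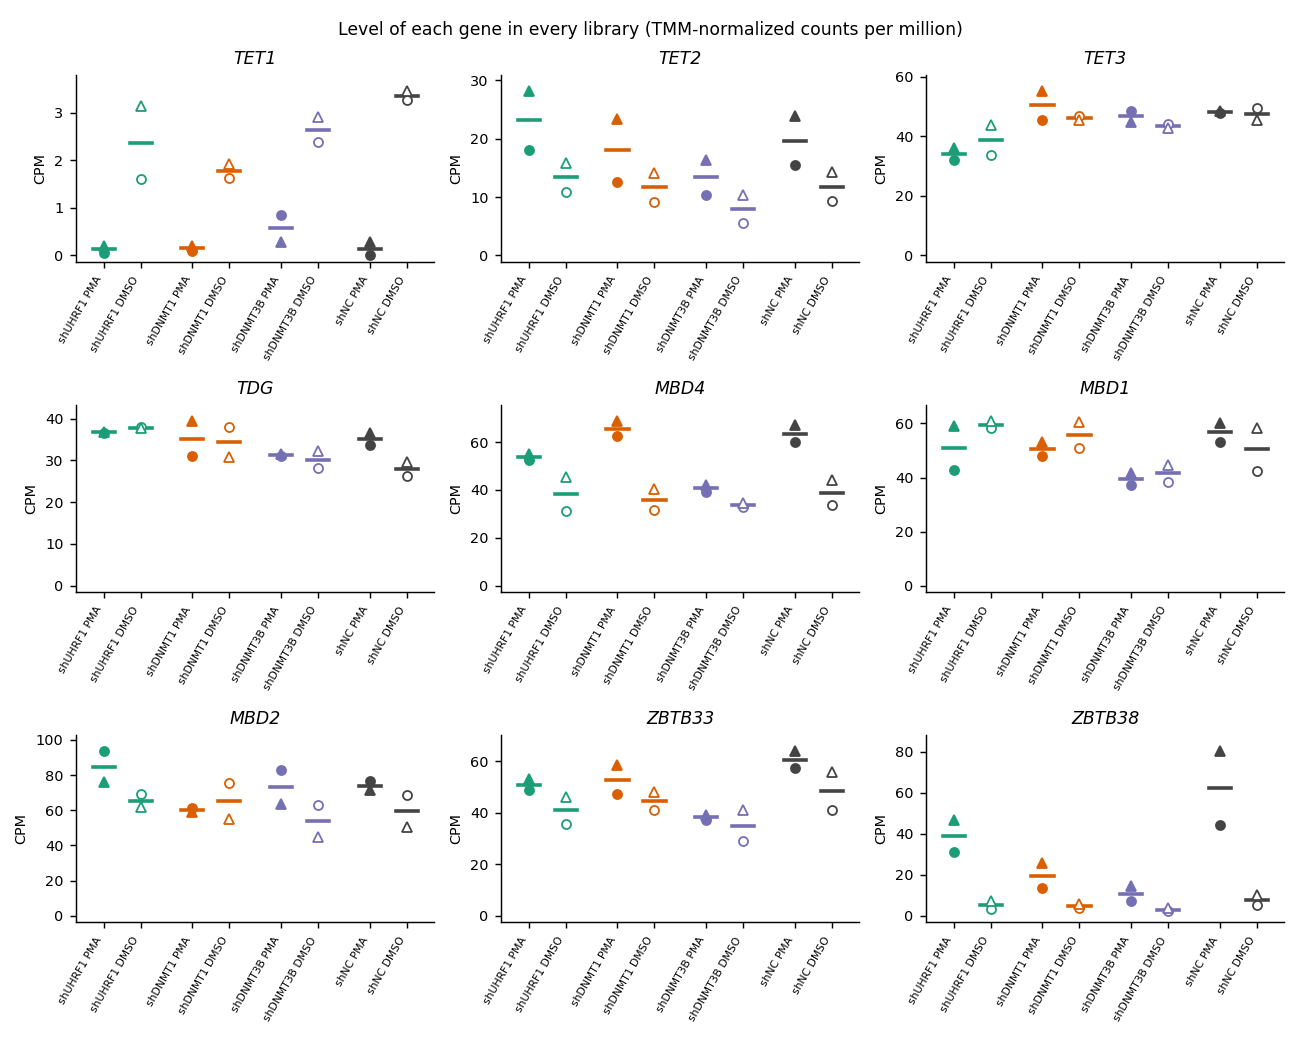
Level of each of the 9 genes in all 16 libraries, in TMM-normalized CPM on a linear axis. Filled symbols are PMA and open symbols DMSO, circles are replicate 1 and triangles replicate 2, and bars are the means of 2 libraries. In every line TET1 was lower and ZBTB38 higher in both PMA libraries than in both DMSO libraries. Replicate 2 was above replicate 1 in all 8 groups for ZBTB38, TET2, MBD4, MBD1 and ZBTB33. For MBD2 it was below replicate 1 in all 8.

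The first question was how these genes behave when THP-1 cells differentiate. TET1 fell with PMA in all 4 lines and ZBTB38 rose in all 4, while MBD4 rose in 3. TET1 had 0 and 4 counts in shNC PMA, against 62 and 65 counts in shNC DMSO. It had 1 and 3 counts in shUHRF1 PMA, against 33 and 66 counts in shUHRF1 DMSO. It had 2 and 3 counts in shDNMT1 PMA, against 30 and 37 counts in shDNMT1 DMSO. The PMA libraries of these lines lay far below their DMSO libraries. In shDNMT3B, TET1 had 15 and 4 counts in PMA, against 45 and 57 counts in DMSO, so that 1 PMA library held most of what was left.

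Scaled by library size, TET1 was 27.6-fold lower in PMA in shNC (95% counting interval 10.5 to 102.9), 19.0-fold lower in shUHRF1 (7.20 to 71.2), 12.6-fold lower in shDNMT1 (5.16 to 40.2) and 4.40-fold lower in shDNMT3B (2.68 to 7.61). These exact intervals cover counting error only. The count of 0 in shNC PMA replicate 1 allows up to 0.158 CPM. By edgeR's quasi-likelihood test the log2 changes of TET1 were -4.67 ± 0.79 in shNC (SE, adjusted p = 2.86e-04), -4.16 ± 0.80 in shUHRF1, -3.58 ± 0.79 in shDNMT1 and -2.16 ± 0.63 in shDNMT3B (adjusted p = 0.0143). TET1 passed the filter on low counts through its DMSO libraries. Fitted changes of this size depend on how low counts are treated. The call in shDNMT3B was lost without shDNMT3B DMSO replicate 2 (adjusted p = 0.0538) or shDNMT3B PMA replicate 2 (adjusted p = 0.12). Across the 8 groups TET1 was highest in shNC DMSO (3.35 ± 0.13 CPM, SD, n = 2) and lowest in shUHRF1 PMA (0.132 ± 0.11 CPM). The 3 lowest groups, shDNMT1, shNC and shUHRF1 in PMA, overlapped.

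ZBTB38 was at 44.1 and 80.1 CPM in shNC PMA, against 5.42 and 10.3 CPM in shNC DMSO. It was at 30.9 and 46.9 CPM in shUHRF1 PMA, against 3.29 and 7.18 CPM in shUHRF1 DMSO. It was at 13.4 and 25.6 CPM in shDNMT1 PMA, against 3.96 and 5.93 CPM in shDNMT1 DMSO. In shDNMT3B it reached 7.03 and 14.4 CPM in PMA, against 2.17 and 3.97 CPM in DMSO. Both PMA libraries lay above both DMSO libraries in every line, but the shDNMT3B PMA libraries overlapped those of shNC in DMSO. The log2 changes were 2.98 ± 0.52 in shNC, 2.89 ± 0.53 in shUHRF1, 1.97 ± 0.52 in shDNMT1 and 1.79 ± 0.55 in shDNMT3B, or 7.88-fold, 7.41-fold, 3.92-fold and 3.46-fold. The adjusted p was 3.84e-04 in shNC, 5.08e-04 in shUHRF1, 0.00697 in shDNMT1 and 0.0173 in shDNMT3B.

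For ZBTB38, replicate 2 was above replicate 1 in all 8 groups, by 0.58 to 1.13 on the log2 scale, and libraries numbered 2 also had fewer counts and a lower mitochondrial share. The part of these in the level was not tested. Within each replicate number the change with PMA was 2.999 and 2.94 in shNC, 3.19 and 2.69 in shUHRF1, 1.73 and 2.09 in shDNMT1, and 1.65 and 1.83 in shDNMT3B (log2, replicate 1 before replicate 2). Without the block, the call in shDNMT1 was lost without shDNMT1 DMSO replicate 1 (1.71, adjusted p = 0.0643) or shDNMT1 PMA replicate 2 (1.44, adjusted p = 0.0699). That in shDNMT3B was lost without shDNMT3B DMSO replicate 1 (1.39, adjusted p = 0.132) or shDNMT3B PMA replicate 2 (1.20, adjusted p = 0.157).

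**Figure D2:**
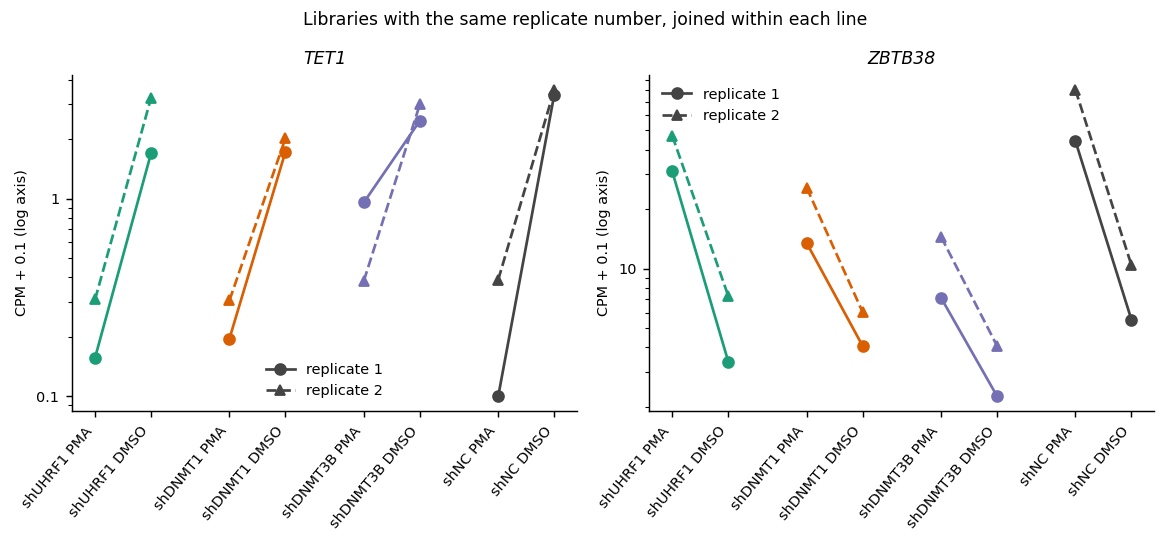
TET1 (left) and ZBTB38 (right) in CPM, with 0.1 added, on a log axis, with lines joining PMA and DMSO libraries of the same replicate number. All 8 joined pairs fell with PMA for TET1 and all 8 rose for ZBTB38, and the ZBTB38 lines of a group run nearly parallel.

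MBD4 was at 60.1 and 67.1 CPM in shNC PMA, against 33.6 and 44.2 CPM in shNC DMSO, and the log2 change was 0.71 ± 0.20 (adjusted p = 0.00824). In shDNMT1 it was at 62.4 and 68.8 CPM in PMA, against 31.6 and 40.4 CPM in DMSO (0.86 ± 0.20, adjusted p = 0.00264). In shUHRF1 it was at 52.6 and 54.9 CPM in PMA, against 31.1 and 45.2 CPM in DMSO (0.49 ± 0.20, adjusted p = 0.0481). With the block, the quasi-likelihood test gave adjusted p = 3.31e-05 in shNC, 2.63e-06 in shDNMT1, 0.00132 in shUHRF1 and 0.0817 in shDNMT3B. The groups did not overlap in these lines, but the shUHRF1 call sat at the threshold and was lost in 8 alternatives, DESeq2 among them (adjusted p = 0.0574). The shNC call was lost without shNC DMSO replicate 1, the library with hemoglobin counts (0.53, adjusted p = 0.0907), without shNC PMA replicate 2 (0.63, adjusted p = 0.058), and with upper-quartile factors (0.43, adjusted p = 0.0662). In shDNMT3B, MBD4 was at 39.1 and 42.3 CPM in PMA, against 33.0 and 34.5 CPM in DMSO (0.27 ± 0.20, adjusted p = 0.287). MBD4 shares 279 exonic bases, 8.32% of its exonic length, with IFT122 on the opposite strand, and since the strand setting of the counting was not stated, some of its reads cannot be told apart from those of IFT122.

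The other genes did not pass this test in any line. TET2 was at 15.4 and 23.8 CPM in shNC PMA, against 9.31 and 14.2 CPM in shNC DMSO (0.73 ± 0.41, adjusted p = 0.151). Its changes were 0.79 in shUHRF1, 0.62 in shDNMT1 and 0.74 in shDNMT3B, and replicate 2 was above replicate 1 in all 8 groups. With the replicate number as a block, the change of TET2 was 0.74 ± 0.15 in shNC (adjusted p = 1.13e-04), and it passed in the other 3 lines too. The log2 value of MBD2 was 0.32 ± 0.22 in shNC (with the block, adjusted p = 0.024), and with the block it also passed in shUHRF1 and shDNMT3B. ZBTB33 stood at 0.32 ± 0.21 in shNC (with the block, adjusted p = 0.0214) and passed with the block in shUHRF1 too. TDG stood at 0.33 ± 0.16 in shNC and passed with the block there (adjusted p = 0.0361). The log2 values of TET3 were -0.19 to 0.12 and those of MBD1 -0.23 to 0.17 over the 4 lines, and neither gene passed in either fit.

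Counted over the 9 genes, 2 were called higher and 1 lower with PMA in shNC, against 28.4% and 26.0% of the 16503 genes tested. In shUHRF1 there were 2 and 1, against 29.4% and 25.5%, and in shDNMT1 2 and 1, against 28.6% and 24.1%. In shDNMT3B there were 1 and 1, against 25.2% and 19.7%. The median log2 change of the 9 genes was 0.32, 0.31, 0.12 and 0.13 in the same order, beside medians of all genes between -0.0052 and 0.020. With the replicate block, 6 were called higher and 1 lower in shNC (34.5% and 32.6% of all genes), 5 and 1 in shUHRF1 (35.4% and 32.5%), 3 and 1 in shDNMT1 (34.4% and 31.0%), and 3 and 1 in shDNMT3B (32.5% and 27.5%).

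**Figure D3:**
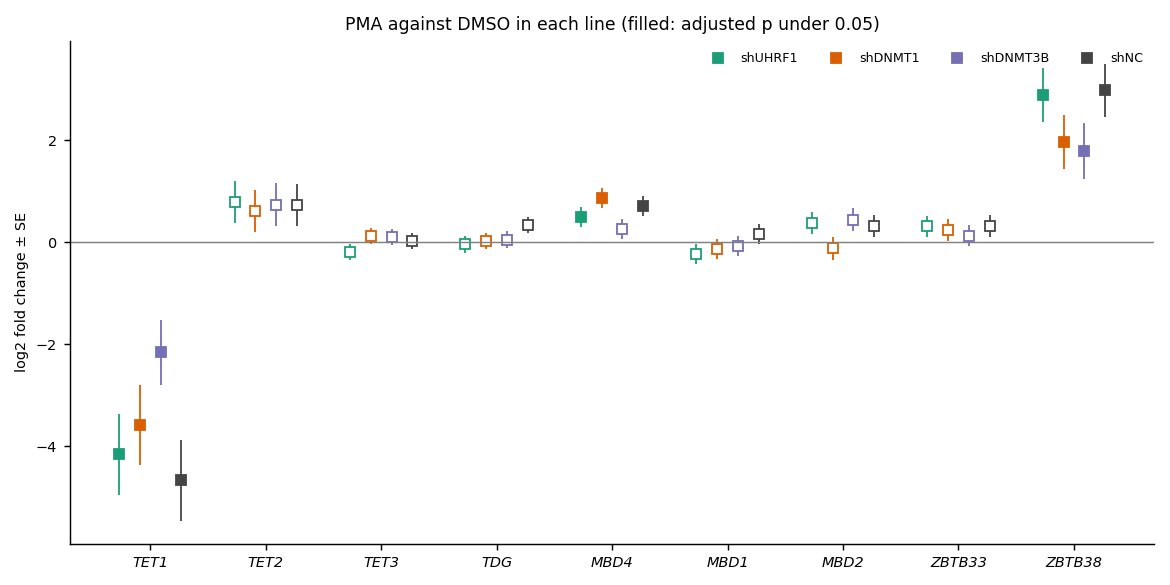
Log2 fold change of the 9 genes with PMA in each line, from edgeR's quasi-likelihood fit without the replicate block, with bars of 1 SE and filled squares for an adjusted p under 0.05. TET1 ran from -4.67 to -2.16 and ZBTB38 from 1.79 to 2.98, and the other 7 genes stayed between -0.23 and 0.86.

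The second question was whether the lines differ from shNC before differentiation. In DMSO none of the 9 genes passed edgeR's quasi-likelihood test in any of the 3 lines, where 1.31% (shUHRF1), 3.96% (shDNMT1) and 4.51% (shDNMT3B) of all genes did. At an unadjusted p under 0.05 there were 1, 0 and 2 genes in this order, and DESeq2 and the exact test after DEGES normalization called 0 in each line. ZBTB38 was the gene with the largest differences in shDNMT3B, at 2.17 and 3.97 CPM, against 5.42 and 10.3 CPM in shNC (-1.35 ± 0.54, adjusted p = 0.205). Both shDNMT3B libraries were below both shNC libraries.

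With the replicate block, ZBTB38 was lower than in shNC in all 3 lines in DMSO, with log2 differences of -0.60 ± 0.17 in shUHRF1 (adjusted p = 0.0244), -0.64 ± 0.17 in shDNMT1 (adjusted p = 0.0145) and -1.35 ± 0.18 in shDNMT3B (adjusted p = 1.25e-05). In the same fit TDG was higher in shUHRF1 (0.44 ± 0.14, adjusted p = 0.037), at 38.0 and 37.7 CPM against 26.2 and 29.6 CPM in shNC. TET2 was lower in shDNMT3B (-0.58 ± 0.15, adjusted p = 0.0104), at 5.55 and 10.4 CPM against 9.31 and 14.2 CPM, and so was ZBTB33 (-0.47 ± 0.13, adjusted p = 0.0103), at 28.9 and 41.0 CPM against 41.0 and 56.0 CPM. This made 2, 1 and 3 of the 9 genes, beside 11.5%, 13.6% and 18.7% of all genes.

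Marker genes moved in the same comparisons. The summed macrophage genes were at 196.6 and 225.3 CPM in shDNMT1 DMSO, 204.6 and 286.4 CPM in shUHRF1 DMSO and 288.2 and 261.2 CPM in shDNMT3B DMSO, against 300.1 and 346.5 CPM in shNC DMSO. Of these 6 genes 2 were called lower in shDNMT1 (5 with the block), 1 in shUHRF1 and 1 in shDNMT3B (with the block, 2 higher and 2 lower). The summed dividing-cell genes were at 835.3 and 865.9 CPM in shDNMT3B DMSO, against 1086 and 1152 CPM in shNC DMSO, and 1 of 7 was called lower (4 with the block). Their sum was 1053 and 1079 CPM in shDNMT1 DMSO and 1120 and 1228 CPM in shUHRF1 DMSO, which overlapped shNC in shUHRF1 and lay below it in shDNMT1. The mitochondrial share was 29.0% and 14.5% in shDNMT3B DMSO, 28.0% and 12.6% in shDNMT1 DMSO and 26.6% and 9.86% in shUHRF1 DMSO, against 24.4% and 9.97% in shNC DMSO. The part of these in the differences in DMSO was not tested.

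After PMA, ZBTB38 was lower than in shNC in 2 of the 3 lines. ZBTB38 was at 7.03 and 14.4 CPM in shDNMT3B PMA, against 44.1 and 80.1 CPM in shNC PMA (-2.54 ± 0.52, adjusted p = 0.00456), and at 13.4 and 25.6 CPM in shDNMT1 PMA (-1.68 ± 0.50, adjusted p = 0.039). Neither group overlapped shNC PMA. In shUHRF1 PMA it was at 30.9 and 46.9 CPM, and this range overlapped that of shNC (-0.67 ± 0.48, adjusted p = 0.554; with the block, -0.64 ± 0.14, adjusted p = 0.00218). The shDNMT1 call was lost when any 1 of the 4 libraries compared was left out (-2.21 to -1.19). That in shDNMT3B was lost without shDNMT3B PMA replicate 1 (-2.11, adjusted p = 0.0602). The differences within replicate number were -2.63 and -2.47 in shDNMT3B and -1.71 and -1.64 in shDNMT1 (log2). The fits with a library left out had no block. With the block, the quasi-likelihood test gave -2.55 ± 0.15 in shDNMT3B (adjusted p = 1.36e-11). In shDNMT1 it gave -1.68 ± 0.14 (adjusted p = 3.04e-09).

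The dividing-cell genes moved with these lines. Their summed level was 228.7 and 239.2 CPM in shDNMT3B PMA and 239.7 and 259.2 CPM in shDNMT1 PMA, against 86.8 and 83.3 CPM in shNC PMA, and 6 of 7 were called higher in each of the 2 lines. In shUHRF1 PMA the sum was 93.4 and 93.1 CPM and none was called (3 with the block). The summed macrophage genes were at 8046 and 7743 CPM in shDNMT3B PMA, 15320 and 11150 CPM in shDNMT1 PMA and 29460 and 24600 CPM in shUHRF1 PMA, against 19020 and 15920 CPM in shNC PMA. Of the 6 macrophage genes 1 was called higher and 3 lower in shDNMT3B, 0 in shDNMT1 (1 higher and 1 lower with the block) and 1 higher in shUHRF1 (with the block also 1 lower). The mitochondrial share was 19.5% and 9.35% in shDNMT3B PMA, against 10.3% and 4.76% in shNC PMA. It was 7.71% and 4.86% in shDNMT1 PMA and 9.54% and 3.92% in shUHRF1 PMA. The part of these in the differences of ZBTB38 and the other genes after PMA was not tested.

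In shDNMT3B PMA 2 more genes were lower than in shNC PMA. MBD4 was at 39.1 and 42.3 CPM, against 60.1 and 67.1 CPM in shNC (-0.64 ± 0.20, adjusted p = 0.0354), and ZBTB33 was at 37.4 and 39.1 CPM, against 57.3 and 63.8 CPM (-0.66 ± 0.21, adjusted p = 0.0418). The groups did not overlap for either gene. Both calls were lost when any 1 of the 4 libraries was left out, with log2 differences of -0.72 to -0.56 for MBD4 and -0.74 to -0.59 for ZBTB33, and also with upper-quartile factors. These fits had no block. With the block, MBD4 (adjusted p = 3.80e-04) and ZBTB33 (adjusted p = 2.24e-04) passed the quasi-likelihood test. MBD1 was at 37.3 and 41.6 CPM, against 53.1 and 60.2 CPM (-0.52 ± 0.20, adjusted p = 0.08), and passed with the block (adjusted p = 0.00182). TET2 was at 10.3 and 16.4 CPM, against 15.4 and 23.8 CPM (-0.56 ± 0.41, adjusted p = 0.375), and passed with the block too (adjusted p = 0.00404).

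TET1 stood the other way in shDNMT3B PMA, with 15 and 4 counts against 0 and 4 counts in shNC PMA (2.17 ± 0.92, adjusted p = 0.121; with the block, 2.23 ± 0.83, adjusted p = 0.0363). This rests on shDNMT3B PMA replicate 1, since the libraries numbered 2 differed by -0.019 on the log2 scale. TET3 was at 31.9 and 36.3 CPM in shUHRF1 PMA, against 47.8 and 48.6 CPM in shNC PMA, with no overlap (-0.50 ± 0.16, adjusted p = 0.109). It passed with the block (adjusted p = 0.0122) and with DESeq2 (adjusted p = 0.0354). The counts after PMA were 0 of 9 in shUHRF1, 1 in shDNMT1 and 3 in shDNMT3B, beside 3.69%, 14.8% and 20.3% of all genes. In shUHRF1 there was 1 gene at an unadjusted p under 0.05, DESeq2 called 1 and the exact test after DEGES normalization 0. With the block there were 2, 1 and 6 genes, beside 15.2%, 31.4% and 39.9% of all genes.

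**Figure D4:**
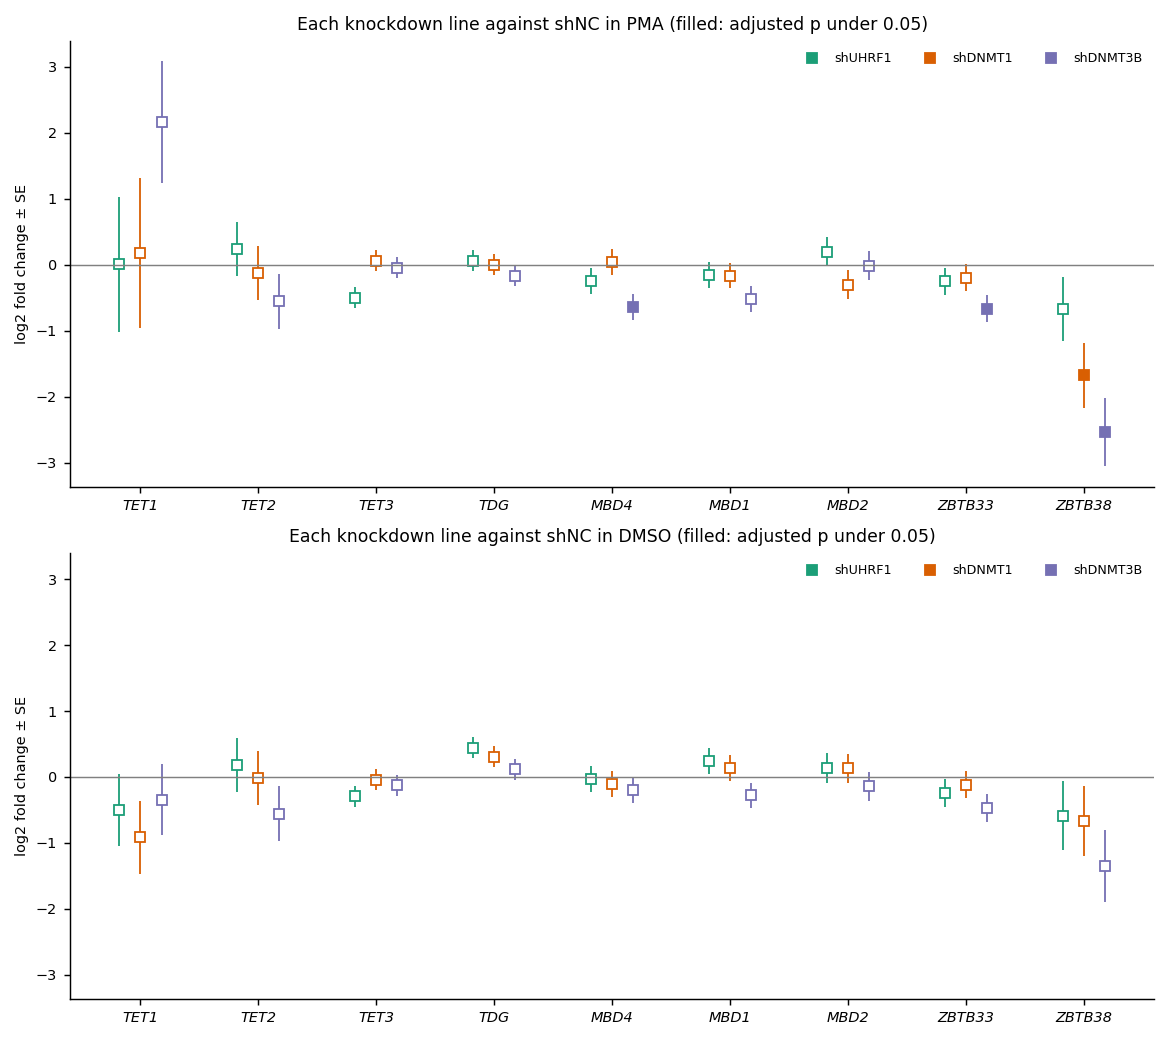
Log2 difference of each line from shNC, in PMA (top) and in DMSO (bottom), from edgeR's quasi-likelihood fit without the replicate block, with bars of 1 SE and filled squares for an adjusted p under 0.05. ZBTB38 ran from -2.54 to -0.59, and the 4 filled squares are ZBTB38 in shDNMT1 and shDNMT3B and MBD4 and ZBTB33 in shDNMT3B, all in PMA.

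The last question was whether the response to PMA itself differed from that of shNC. None of the 9 genes passed edgeR's quasi-likelihood test for this difference, where 0.848% (shUHRF1), 6.71% (shDNMT1) and 6.77% (shDNMT3B) of all genes did. At an unadjusted p under 0.05 there were 0, 0 and 1 genes, and DESeq2 called 0 in each. With the replicate block, the rise of ZBTB38 was smaller than in shNC, with a difference of -1.04 ± 0.22 on the log2 scale in shDNMT1 (adjusted p = 0.00178; without the block, -1.01 ± 0.72, adjusted p = 0.511). In shDNMT3B the difference was -1.20 ± 0.24 (adjusted p = 8.13e-04; without the block, -1.19 ± 0.74, adjusted p = 0.43). In shUHRF1 the difference was -0.041 ± 0.22 with the block (adjusted p = 0.959). For TET1 in shDNMT3B the difference of the responses was 2.51 ± 1.1 (adjusted p = 0.212; with the block, 2.59 ± 0.92, adjusted p = 0.0516). With the block 0, 1 and 1 of the 9 genes were called, beside 8.48%, 18.6% and 19.5% of all genes. These comparisons share the shNC libraries.

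The genes that act with the 9 were taken from 5 lists of 57 genes, of which 56 passed the filter. The lists were drawn up with earlier results of these data known and are given as a description. With PMA in shNC, 10 of the 56 rose and 23 fell, beside 28.4% and 26.0% of all genes, and their median log2 change was -0.33, beside -0.0049 for all genes. The counts were 11 and 23 in shUHRF1 (29.4% and 25.5% of all genes), 12 and 20 in shDNMT1 (28.6% and 24.1%), and 10 and 18 in shDNMT3B (25.2% and 19.7%). With the block they were 11 and 26 in shNC (34.5% and 32.6%), 14 and 28 in shUHRF1 (35.4% and 32.5%), 16 and 26 in shDNMT1 (34.4% and 31.0%), and 15 and 23 in shDNMT3B (32.5% and 27.5%). The counts of the single lists below stand beside these same shares of all genes.

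Among 10 tested regulators of the TET enzymes and enzymes of their cofactors, 2 rose and 4 fell in shNC, beside 28.4% and 26.0% of all genes, with a median log2 change of -0.34. CXXC5, a CpG-binding protein known to limit TET2, rose by 2.45 ± 0.15, and by 2.00 to 2.58 over the 4 lines. IDH2 and IDH1, which make the 2-oxoglutarate that TET enzymes use, fell by 1.85 ± 0.20 and 1.01 ± 0.12 in shNC. WT1, which recruits TET2, fell by 1.12 ± 0.24 in shNC, and its log2 change was -0.89 ± 0.24 in shUHRF1. In shDNMT1 (-0.14 ± 0.24) and shDNMT3B (-0.38 ± 0.24) WT1 did not pass in either fit. With the block 2 rose and 5 fell in shNC. In shUHRF1 1 rose and 4 fell (2 and 6 with the block). In shDNMT1 there were 1 and 3 (2 and 4 with the block), and in shDNMT3B 1 and 4 (2 and 4 with the block).

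Of 16 genes of base excision repair and its accessory factors, 2 rose and 8 fell in shNC, beside 28.4% and 26.0% of all genes, with a median of -0.59. The list holds factors that act after TDG or MBD4 has cut out a base, and also other glycosylases, such as UNG and NEIL3. UNG, the uracil glycosylase, fell by 2.22 ± 0.16, the flap nuclease FEN1 by 3.32 ± 0.29, the ligase LIG1 by 1.82 ± 0.17 and the glycosylase NEIL3 by 4.26 ± 0.41. FEN1 and LIG1 also serve DNA replication, and the dividing-cell genes fell in the same libraries. Their part was not tested. XRCC1, the scaffold of single-strand break repair, rose by 1.95 ± 0.20 in shNC and by 1.53 ± 0.20 in shDNMT3B. In shUHRF1 2 rose and 8 fell (2 and 9 with the block). In shDNMT1 there were 3 and 7 (4 and 8 with the block), and in shDNMT3B 2 and 6 (4 and 6 with the block).

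NuRD is the repressor complex that MBD2 recruits. Of its 12 tested subunits, 1 rose and 7 fell in shNC, beside 28.4% and 26.0% of all genes. Their median log2 change there was -0.53, with RBBP7 at -1.89 ± 0.17, MTA1 at -0.89 ± 0.18, MTA2 at -0.85 ± 0.14 and GATAD2B at 1.21 ± 0.16. The counts were 2 and 6 in shUHRF1, 2 and 6 in shDNMT1, and 1 and 4 in shDNMT3B. With the block there were 1 and 8 in shNC, 3 and 7 in shUHRF1, 2 and 7 in shDNMT1, and 1 and 6 in shDNMT3B.

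Of 9 other methyl-CpG or CpG binding proteins, 4 rose and 1 fell in shNC, beside 28.4% and 26.0% of all genes, with a median of 0.28. KDM2A, a histone demethylase that binds unmethylated CpG, rose by 0.99 ± 0.14 in shNC, MBD5 by 0.75 ± 0.21 and ZBTB4, a relative of ZBTB38, by 0.61 ± 0.16. MBD3, the relative of MBD2 in NuRD, was called lower in every line. Its log2 change was -0.91 ± 0.32 in shNC and -0.80 ± 0.32 in shUHRF1 (adjusted p = 0.0491, quasi-likelihood test). It fell by 1.27 ± 0.32 in shDNMT1 and by 1.08 ± 0.32 in shDNMT3B. There were 4 that rose and 3 that fell in shUHRF1, 4 and 3 in shDNMT1, and 5 and 3 in shDNMT3B. With the block these counts were 4 and 4 in shUHRF1, 5 and 4 in shDNMT1, and 5 and 4 in shDNMT3B.

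Of 9 partners of the readers, 1 rose and 3 fell in shNC, beside 28.4% and 26.0% of all genes, with a median of -0.23. CTNND1 (p120 catenin), which binds Kaiso, rose by 1.37 ± 0.15. TBL1XR1 and HDAC3 of the NCoR complex, which Kaiso can recruit, fell by 0.75 ± 0.24 and 0.49 ± 0.18. In shUHRF1 2 rose and 2 fell, in shDNMT1 2 and 1, and in shDNMT3B 1 and 1. With the block there were 2 and 4 in shNC, 3 and 2 in shUHRF1, 3 and 3 in shDNMT1, and 3 and 3 in shDNMT3B.

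**Figure D5:**
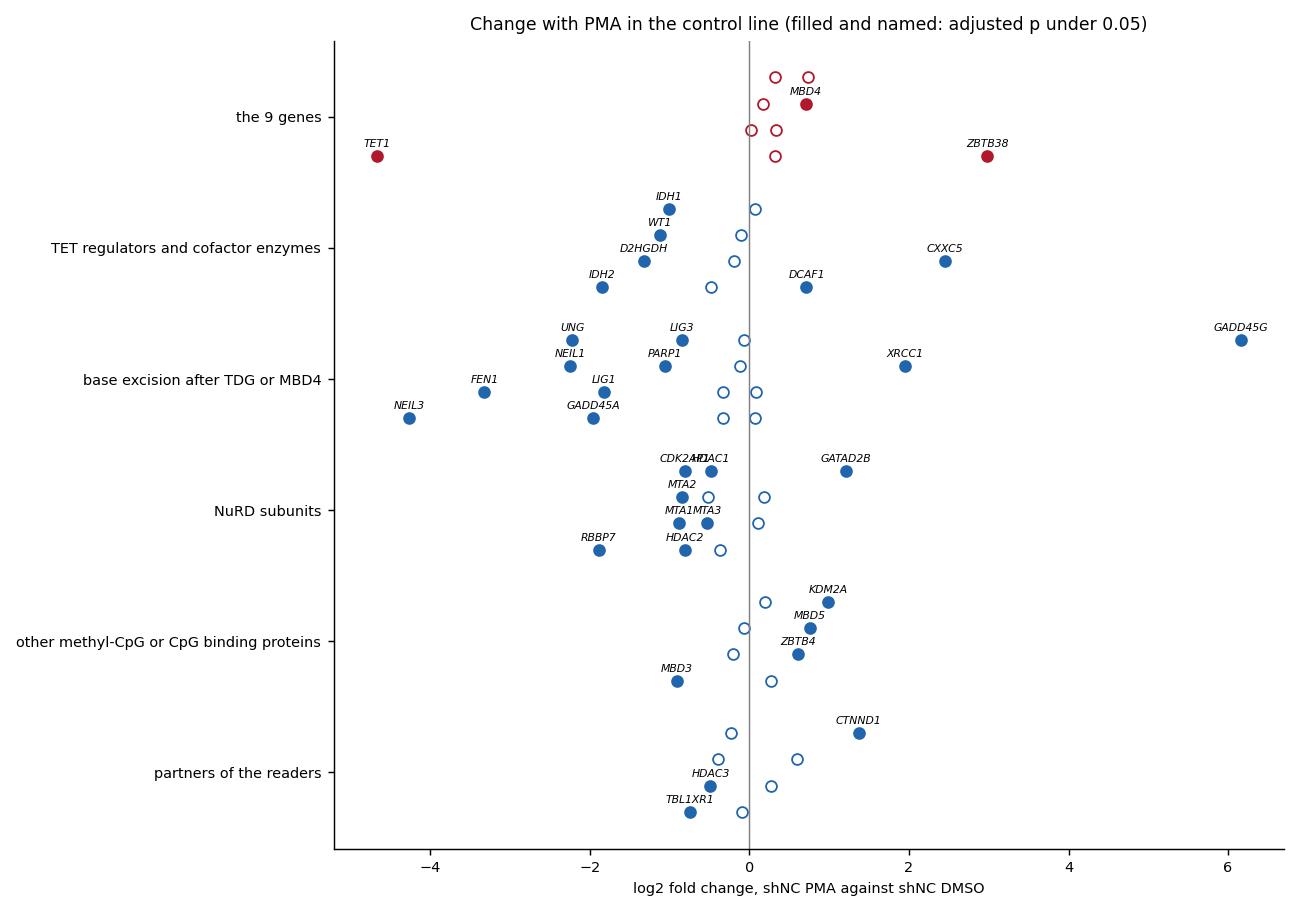
Log2 fold change in shNC PMA against shNC DMSO for the 9 genes and genes of the 5 lists of related genes (not all are shown), with filled and named points for an adjusted p under 0.05 in edgeR's quasi-likelihood fit without the replicate block. TET1 at -4.67 lay below every list gene shown, and ZBTB38 at 2.98 lay above all but GADD45G.

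The lines were compared with shNC for these lists too. In DMSO 0 of 56 passed edgeR's quasi-likelihood test in each line, with 3, 3 and 8 at an unadjusted p under 0.05 in shUHRF1, shDNMT1 and shDNMT3B, and 1.31%, 3.96% and 4.51% of all genes passed. With the block there were 5, 7 and 10, beside 11.5%, 13.6% and 18.7% of all genes. After PMA 0, 3 and 11 passed, beside 3.69%, 14.8% and 20.3% of all genes. With the block there were 8, 14 and 24 after PMA, beside 15.2%, 31.4% and 39.9% of all genes.

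For each of the 9 genes the most alike genes over the 16 libraries were found by Pearson's r of log2 CPM among 13628 genes with a mean of at least 1 CPM. These values are a description: the libraries share their treatment, their line and their depth, and PMA alone separates them. ZBTB38 was most like RB1CC1 (r = 0.989), TBC1D23 (0.984) and PTPN1 (0.982). TET1 was most like KLHL23 (0.974), PCDH8 (0.972) and ZBTB14 (0.971), and TET2 was most like KMT2C (0.973), SON (0.967) and UHMK1 (0.967). MBD4 was most like PDPK1 (0.971), EIF4G1 (0.971) and ELOVL5 (0.964), and ZBTB33 like TOPORS (0.950), PDE12 (0.948) and RNF6 (0.937). The best match was weaker for MBD1 (UPF1, 0.932), MBD2 (LAMTOR5, 0.921), TDG (PRDM10, 0.865) and TET3 (NLN, 0.855).

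The order of the 8 groups by mean level is given with the neighbours whose libraries overlapped. Overlap takes no account of the replicate number, so it does not show that 2 groups are alike. ZBTB38 in shUHRF1 PMA overlapped shNC PMA, but libraries of the same number differed by -0.51 and -0.77 (log2). Over DMSO and PMA, ZBTB38 was lower than in the same-numbered shNC library in 12 of 12 pairs. For ZBTB38 it was shNC, shUHRF1, shDNMT1 and shDNMT3B in PMA, at 62.1 ± 25, 38.9 ± 11, 19.5 ± 8.6 and 10.7 ± 5.2 CPM, followed by the same lines in DMSO at 7.86 ± 3.5, 5.23 ± 2.7, 4.95 ± 1.4 and 3.07 ± 1.3 CPM (SD, n = 2 each). Only shUHRF1 PMA and shDNMT1 PMA were neighbours without overlap. For MBD4 2 of the 7 neighbouring pairs did not overlap, those of shNC PMA with shUHRF1 PMA and of shUHRF1 PMA with shDNMT3B PMA. For TET2, MBD1, MBD2 and ZBTB33 all neighbours overlapped. The highest and lowest means were 23.1 ± 7.1 CPM (shUHRF1 PMA) and 7.99 ± 3.5 CPM (shDNMT3B DMSO) for TET2, and 84.8 ± 12 CPM (shUHRF1 PMA) and 53.8 ± 13 CPM (shDNMT3B DMSO) for MBD2. For MBD1 they were 59.5 ± 1.9 CPM (shUHRF1 DMSO) and 39.5 ± 3.1 CPM (shDNMT3B PMA), and for ZBTB33 60.5 ± 4.6 CPM (shNC PMA) and 34.9 ± 8.5 CPM (shDNMT3B DMSO). TET3 ran from 50.4 ± 6.9 CPM in shDNMT1 PMA to 34.1 ± 3.1 CPM in shUHRF1 PMA, and TDG from 37.8 ± 0.24 CPM in shUHRF1 DMSO to 27.9 ± 2.4 CPM in shNC DMSO.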

How the data were processed

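RNA was sequenced from 16 libraries of THP-1 cells in 8 groups of line by treatment. The authors aligned the reads, from a stranded mRNA kit, with STAR 2.4.0b to hg38 and counted them per gene with HTSeq 0.6.1p1, and the deposited table holds whole-number counts per Ensembl gene, not normalized. Cufflinks 2.1.1 and edgeR are also named in the submitters' processing notes. The strand setting and annotation of the counting are not given in the sources used here. In 12 of 16 samples the description and the title named different groups, so columns were read by the group in their own names. Genes were named by GENCODE release 44, and all 9 matched. Members, lists, motifs and tests were chosen with earlier results of these data known.

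Testing used edgeR 4.0.16 (R 4.3.3). Low counts were filtered by filterByExpr with a minimum count of 10 and a minimum total of 15, which left 16503 genes. After TMM scaling, 1 quasi-likelihood model with robust dispersions was fitted to the 8 groups (8 residual degrees of freedom) and gave 13 comparisons. The p-values were adjusted by the Benjamini-Hochberg method within each comparison, over every gene tested, and a call needed less than 0.05 with no fold limit.

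Same-numbered libraries deviated together: in 28 of 28 pairs of groups the correlation of their deviations was over 0.1 (0.22 to 0.508), so a fit with the replicate number as a block is given beside the results it changes. Its common dispersion was 0.0115, against 0.0439 without the block. Where a library was left out, its partner was taken to vary like the other groups. The fits with a library left out had no block, and neither had the other alternatives. Other alternatives were DESeq2 1.42.0, upper-quartile factors, no filter, only the libraries compared, and edgeR's exact test with factors from 3 DEGES rounds. A prior count of 2 was added for log2 CPM. Genes named besides the 9 are up to 4 of each list and PMA comparison with the smallest adjusted p, the hairpin targets, the marker genes of the cell type lists, and the 3 genes most alike to each of the 9, of which part is printed. GADD45G was named after its value was seen. Some genes of the lists are counted but not reported singly here. Promoter windows come from RefSeq (GRCh38.p14). Python 3.11.15 with pandas 2.3.3, NumPy 2.4.6, SciPy 1.17.1 and matplotlib 3.10.9 served for joining tables and for plots.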

Additional observations from a re-analysis of the deposited data

Results flagged for a closer look

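The rise of ZBTB38 with PMA differed from that in shNC in 2 lines by a test of the difference itself, with the replicate number as a block. The difference was -1.04 on the log2 scale in libraries labelled shDNMT1 and -1.20 in those labelled shDNMT3B (adjusted p = 0.00178 and 8.13e-04, edgeR's quasi-likelihood test). Without the block neither passed (adjusted p = 0.511 and 0.43). Both comparisons share the shNC libraries. In the same lines the dividing-cell genes also fell less with PMA than in shNC. With the block 6 of 7 and 7 of 7 were called, beside 18.6% and 19.5% of all genes. Without the block 4 of 7 and 7 of 7 were called, beside 6.71% and 6.77%. The part of these genes in the ZBTB38 difference was not tested.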

How the results depend on the processing

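The block raised the number of the 9 genes called with PMA to 7 in shNC, 6 in shUHRF1 and 4 in shDNMT3B, without lifting shDNMT1 (4 with the block, 3 without) past 1.5 times. Calls over all genes rose too, in shNC with PMA from 28.4% to 34.5% higher and from 26.0% to 32.6% lower. Against shNC in DMSO the block gave 2, 1 and 3 for shUHRF1, shDNMT1 and shDNMT3B. The shares of all genes rose there from 1.31%, 3.96% and 4.51% to 11.5%, 13.6% and 18.7%. In PMA the block gave 2 in shUHRF1 (all genes 3.69% to 15.2%) and 6 in shDNMT3B (20.3% to 39.9%). For the difference of the PMA response it gave 1 each in shDNMT1 (6.71% to 18.6%) and shDNMT3B (6.77% to 19.5%). The block changed no other count by over 1.5 times: of 117 tests of a gene, 15 were called without the block, 38 with it and 0 only without it. With no filter on low counts, ZBTB38 was called in shDNMT3B DMSO against shNC (1 gene) and for the PMA response of shDNMT3B (1 gene), DESeq2 called 1 gene (TET3) in shUHRF1 PMA against shNC, and upper-quartile factors left 1 gene in shDNMT3B PMA against shNC. With 1 library left out, the counts with PMA were 2 to 3 in shNC, shUHRF1 and shDNMT1 and 0 to 2 in shDNMT3B. Against shNC in PMA they were 0 in each case for shDNMT1 and 0 to 2 for shDNMT3B. No log2 change of the 38 followed turned its sign under any alternative. These 38 were followed because they were called in these same libraries, so a change of sign was unlikely from the start. The other tests were not followed. Upper-quartile factors moved the median of all genes with PMA to -0.31 to -0.22, against -0.0052 to 0.020 with TMM, so that changes with PMA are relative to this shift, and the MBD4 calls in shNC (0.43, adjusted p = 0.0662) and shUHRF1 (0.19, adjusted p = 0.397) were lost. The cause was not tested. Depth limits TET1, whose PMA libraries held 0 to 15 counts. The exact test after DEGES normalization was not run for differences of the PMA response, where it has no such contrast.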
